A study of Homo sapiens with 8 samples.

Results

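The 10 genes described here encode growth factor receptor kinases that drive bladder cancers or are drug targets in them: EGFR, ERBB2 and ERBB3 of the ERBB family, FGFR1, FGFR2, FGFR3 and FGFR4 of the fibroblast growth factor (FGF) receptor family, MET, IGF1R and PDGFRB. They were chosen by name and not by their values, by matching the Ensembl identifiers of the deposited count table to current symbols. All 10 were found among the 57820 genes of the table, and 6 of them were among the 9309 genes with enough counts to be tested. The study sorted J82 cells, a human bladder cancer cell line grown in DMEM with 10% FBS, by flow cytometry after staining with the DNA dye Hoechst. Side population (SP) cells keep little of the dye, because membrane pumps export it, and non-side population (NSP) cells keep it. RNA of 4 SP and 4 NSP libraries was sequenced, and the labels give no other difference in genotype or treatment between the groups. All 8 libraries come from 1 cell line, and the labels do not say whether the replicates are separate cultures, so p-values measure the spread between these libraries, which may be technical.

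Receptor tyrosine kinases span the cell membrane and dimerize when a growth factor binds outside the cell, which switches on the kinase inside it. The phosphorylated receptor recruits adaptor proteins, and these pass the signal to the RAS-MAPK and PI3K-AKT-mTOR kinases that control growth and survival. In bladder cancer, FGFR3 mutation is typical of papillary tumours, ERBB2 and EGFR are often amplified or highly expressed, and FGFR1 and PDGFRB are usually linked with mesenchymal features.

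The libraries held 1431823 to 1697218 counts in SP cells and 1489033 to 2073526 in NSP cells, a small part of the raw reads per sample that the methods of the study state. The strand setting of the counting was not given in the sources used here. In 595 pairs with at least 100 counts, a noncoding gene had at least 50% of its exon bases opposite the exons of a coding gene, and it had more counts per kb than the coding gene in 88.2% of them. The counts of a gene may therefore hold reads of the other strand, in part or for the most part, and these cannot be told apart from its own. Whether the strand setting lowered the counts of the receptors was not tested. This bears on every level and every count of 0 below. Levels are given as CPM, read counts scaled to a common library size with TMM factors, and differences as the log2 fold change of SP over NSP from edgeR with its standard error (SE). A gene was called at a Benjamini-Hochberg adjusted p under 0.05 over all tested genes and a fold change over 1.3. As a check of the labels, the log2 fold change of ABCB1, a drug efflux pump, was 2.96 (SE 0.38, edgeR adjusted p = 0.000744) and that of FOXC1, a forkhead transcription factor, was 3.33 (SE 0.31, edgeR adjusted p = 9.57e-05). The study had reported both as higher in SP cells from this sequencing, so they check only the labels. ABCG2, listed with them, had too few counts to be tested. Defining urothelial markers were scarce in J82, with UPK3A, KRT20 and TP63 at 0 counts in all 8 libraries, and the leukocyte markers PTPRC and CD3E were also at 0. Other markers of both lists were counted, and UPK2, CD14 and CD68 were tested. Leukocyte markers summed to 42.8 to 98.0 CPM in SP libraries, against 14.7 to 36.7 CPM for urothelial markers. RNA was measured in bulk, so fewer cells of a type and less RNA per cell cannot be told apart.

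Of the 6 tested receptors, PDGFRB rose and FGFR1 fell in SP cells, and EGFR, ERBB2, MET and IGF1R were not called. Over all tested genes 3.66% were called, 1.63% higher and 2.03% lower in SP cells. A fit with replicate numbers as a block called the same receptors, and 12.9% of all tested genes. The median log2 fold change was -0.04 over the 6 receptors and 0.01 over all tested genes. PDGFRB and FGFR1 were also the only tested receptors whose SP and NSP ranges of CPM did not overlap, which held for 9.75% of all tested genes. ERBB3, FGFR2, FGFR3 and FGFR4 had too few counts to be tested.

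**Figure D1:**
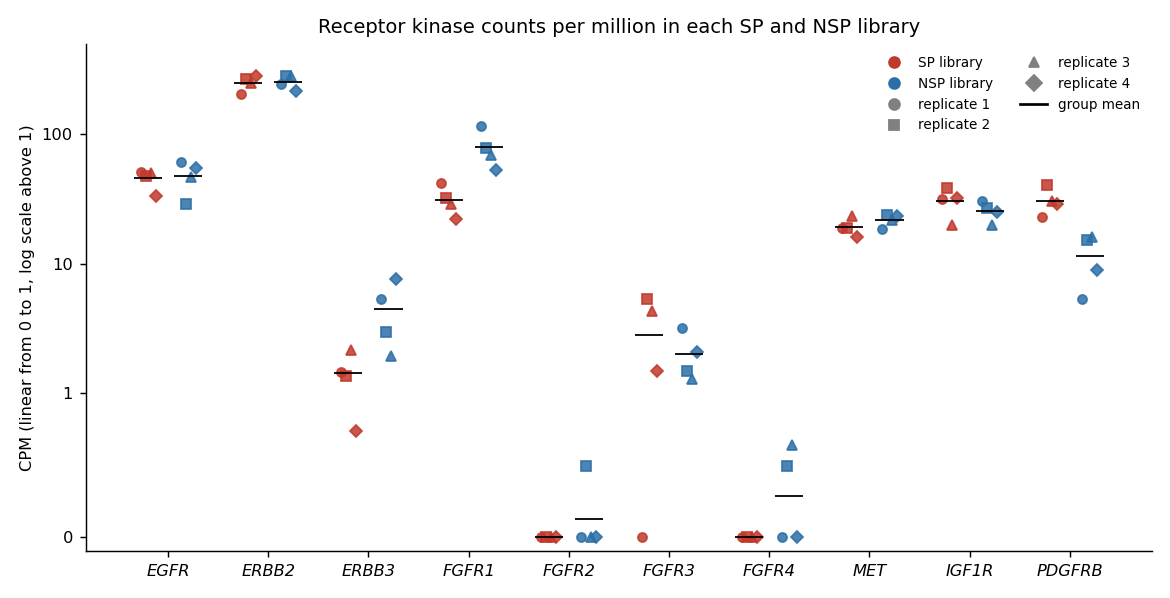
CPM of each receptor gene in the 4 SP (red) and 4 NSP (blue) libraries, on an axis that is linear from 0 to 1 and logarithmic above 1, with replicate numbers as marker shapes and the group mean as a line. FGFR1 lies between 22.1 and 41.8 CPM in SP and between 52.5 and 116 CPM in NSP libraries, PDGFRB lies higher in every SP library than in every NSP library, and FGFR2 and FGFR4 are at 0 in all SP libraries.

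FGFR1, a receptor for FGF ligands and the only FGF receptor with enough counts to be tested, was 2.55-fold lower in SP cells. The gene (ENSG00000077782) lies on the minus strand at chr8:38257733-38326352 of GRCh37. Its counts were 58, 48, 53 and 30 in SP replicates 1 to 4 and 219, 160, 108 and 76 in NSP replicates 1 to 4. These correspond to 41.8, 32.2, 28.7 and 22.1 CPM in SP and to 116, 79.0, 68.9 and 52.5 CPM in NSP cells. All SP libraries were below all NSP libraries, and replicate 1 was the highest and replicate 4 the lowest of both groups. The means were 31.2 ± 8.22 CPM in SP and 79.2 ± 27.1 CPM in NSP cells (SD, n = 4). The log2 fold change was -1.35 (SE 0.25, 95% interval -1.88 to -0.83, edgeR adjusted p = 0.0068). Permuting the libraries of log2(CPM + 1) exactly, two-sided, gave p = 0.0286, the smallest value that 4 against 4 libraries allow. This permutation ignores the replicate numbers. FGFR1 was called without each library in turn, with log2 fold changes from -1.52 to -1.11.

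The FGFR1 signal cannot be assigned to a strand. ENSG00000255201, a long noncoding RNA gene on the plus strand at chr8:38279407-38283614, shares 387 of its 534 exon bases with FGFR1 exons. It held 40, 37, 42 and 33 counts in SP and 179, 131, 85 and 81 counts in NSP libraries, and per kb of exon its total was 26.9 times that of FGFR1 (1176 against 43.7 counts per kb). The noncoding gene was also lower in SP cells, with a log2 fold change of -1.43 (SE 0.21, edgeR adjusted p = 0.00187). With the counts of the 2 genes added, the log2 fold change of FGFR1 was -1.39 (SE 0.21, edgeR adjusted p = 0.0023). The part of ENSG00000255201 in the FGFR1 difference was not tested beyond this sum. LETM2, a mitochondrial protein gene whose exons share 138 bases with FGFR1 on the other strand, held 55 counts in all and was not tested.

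**Figure D2:**
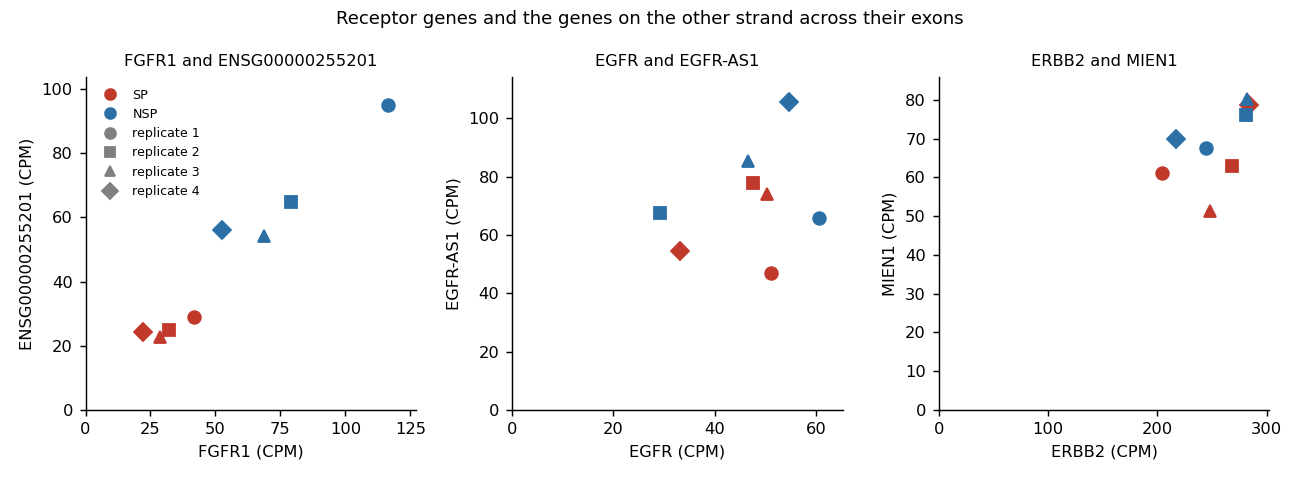
CPM of FGFR1, EGFR and ERBB2 (x axes) against the gene with the most counts among those across their exons on the other strand (y axes), 1 point per library with SP in red, NSP in blue and replicate numbers as marker shapes. For FGFR1 and ENSG00000255201 the 4 SP libraries lie below the 4 NSP libraries on both axes, whereas the groups overlap for EGFR with EGFR-AS1 and for ERBB2 with MIEN1.

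PDGFRB, the receptor for platelet-derived growth factor (PDGF) B chains and a marker of mesenchymal cells, was 2.67-fold higher in SP cells. The gene (ENSG00000113721) lies on the minus strand at chr5:149493402-149535435 of GRCh37 and shares no exon with a gene on the other strand. The doubt about the strand holds for PDGFRB all the same. Its counts were 32, 60, 56 and 39 in SP replicates 1 to 4 and 10, 31, 25 and 13 in NSP replicates 1 to 4. As CPM these were 23.1, 40.2, 30.3 and 28.7 in SP and 5.32, 15.3, 15.9 and 8.99 in NSP cells. The lowest SP library was above the highest NSP library, and replicate 1 was the lowest of both groups. The means were 30.6 ± 7.14 CPM and 11.4 ± 5.12 CPM (SD, n = 4). The log2 fold change was 1.42 (SE 0.30, 95% interval 0.77 to 2.07, edgeR adjusted p = 0.0164), and the exact permutation p was 0.0286. Leaving out 1 library at a time gave 1.16 to 1.61, and the call was lost without SP replicate 2 (1.26, edgeR adjusted p = 0.0586). PDGFRB and FGFR1 thus moved in opposite directions in the same libraries.

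The 250 bases before the RefSeq start of PDGFRB are shown because PDGFRB was the only receptor that rose, and because SP cells had more RNA of the forkhead factor FOXC1. The window lies at chr5:150155846-150156095 of GRCh38.p14 and is printed 5′ to 3′ on the minus strand, from RefSeq. Capitals mark, from left to right, the only match to a GC box (GGGCGG on the other strand) and the only CCAAT.
PDGFRB: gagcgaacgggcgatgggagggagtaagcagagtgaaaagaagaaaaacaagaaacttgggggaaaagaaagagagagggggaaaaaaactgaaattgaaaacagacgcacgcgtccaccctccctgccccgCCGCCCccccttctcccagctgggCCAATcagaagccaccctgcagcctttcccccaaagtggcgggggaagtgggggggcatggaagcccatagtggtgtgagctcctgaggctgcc
The GC box match begins 118 bases and the CCAAT 94 bases before the start. On both strands the window held 0 matches to the forkhead core TGTTTA and 0 to the AP-1 letters TGANTCA. Among 35116 RefSeq windows of the same length, 42.6% held the GC box, 32.0% CCAAT, 11% the forkhead core and 6.57% the AP-1 letters. G and C made up 58.4% of the PDGFRB window, against a median of 58.0% over all windows. A missing match says only that these letters are not in this window.

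ERBB2, the receptor without a ligand of its own that pairs with the other ERBB receptors, had the highest level of the 10 genes per kb of exon, and of the 6 tested it had the smallest difference between the populations. The gene (ENSG00000141736) lies on the plus strand at chr17:37844167-37886679. It had 205, 269, 249 and 284 CPM in SP replicates 1 to 4 and 244, 281, 282 and 217 CPM in NSP replicates 1 to 4, which overlapped throughout. The means were 252 ± 34.5 CPM and 256 ± 31.5 CPM (SD, n = 4), with a log2 fold change of -0.03 (SE 0.15, 95% interval -0.35 to 0.30, edgeR adjusted p = 0.955). A change as large as that of FGFR1 or PDGFRB lies outside this interval. MIEN1, a membrane-associated migration gene, shares 571 exon bases with ERBB2 on the other strand and was not called (log2 fold change -0.21, SE 0.17, edgeR adjusted p = 0.585). MIEN1 held 889 counts against 3315 for ERBB2, and 1.36 times as many counts per kb of exon. PGAP3, which acts on lipid-anchored proteins, shares 144 exon bases with ERBB2 and held 49 counts in all.

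EGFR, the receptor for epidermal growth factor and its relatives, was also not called. The gene (ENSG00000146648) lies on the plus strand at chr7:55086710-55279321. It had 51.2, 47.6, 50.4 and 33.1 CPM in SP replicates 1 to 4 and 60.6, 29.1, 46.6 and 54.6 CPM in NSP replicates 1 to 4. The lowest value of all was NSP replicate 2 and the highest NSP replicate 1, so the SP libraries lay within the NSP range. The means were 45.6 ± 8.43 CPM and 47.7 ± 13.7 CPM (SD, n = 4), and the log2 fold change was -0.06 (SE 0.23, 95% interval -0.54 to 0.42, edgeR adjusted p = 0.932).

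EGFR overlaps the noncoding gene EGFR-AS1 on the minus strand, and the bases that both genes use as exon are shown because reads from them could come from either gene. They are the whole of EGFR exon 20, 186 coding bases at chr7:55248986-55249171 of GRCh37, which encode part of the kinase domain. The exon is in capitals and 30 intron bases on each side are in lower case, 5′ to 3′ on the plus strand at chr7:55248956-55249201.
EGFR exon 20: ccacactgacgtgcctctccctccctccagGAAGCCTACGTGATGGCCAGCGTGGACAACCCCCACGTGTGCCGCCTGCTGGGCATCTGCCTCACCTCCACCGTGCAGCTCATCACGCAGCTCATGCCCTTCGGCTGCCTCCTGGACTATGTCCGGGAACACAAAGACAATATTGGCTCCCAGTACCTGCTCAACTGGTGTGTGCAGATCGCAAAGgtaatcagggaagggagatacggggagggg
The shared bases make up only 6.53% of the exon bases of EGFR-AS1 and 1.17% of those of EGFR. EGFR-AS1 held 940 counts over the 8 libraries against 605 for EGFR, and 8.69 times as many counts per kb of exon. It had a mean of 63.3 ± 15 CPM in SP and 81.2 ± 18.6 CPM in NSP cells (SD, n = 4) and was not called (log2 fold change -0.35, SE 0.20, edgeR adjusted p = 0.432). With the counts of both genes added, which was tried after the data were seen, the log2 fold change of EGFR was -0.24 (edgeR adjusted p = 0.563).

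ERBB3, which binds neuregulins and has little kinase activity of its own, held few counts. The gene (ENSG00000065361) held 2, 2, 4 and 1 counts in SP replicates 1 to 4 and 10, 6, 3 and 11 counts in NSP replicates 1 to 4. The means were 1.42 ± 0.586 CPM in SP and 4.45 ± 2.54 CPM in NSP cells (SD, n = 4), and the groups overlapped between SP replicate 3 and NSP replicate 3. In a fit without the filter on low counts the log2 fold change was -1.55 (SE 0.62, edgeR unadjusted p = 0.0128 and adjusted p = 0.242), and the exact permutation p was 0.0571. A protein-coding gene on the same strand, ENSG00000257411, shares 31 exon bases with ERBB3.

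MET, the receptor for hepatocyte growth factor (HGF), was not called. The gene (ENSG00000105976) lies on the plus strand at chr7:116312250-116438431 and shares no exon with a gene on the other strand. It had 18.7, 18.8, 23.3 and 16.2 CPM in SP replicates 1 to 4 and 18.6, 23.7, 21.7 and 23.5 CPM in NSP replicates 1 to 4. The groups overlapped, and the means were 19.2 ± 2.95 CPM and 21.9 ± 2.36 CPM (SD, n = 4). The log2 fold change was -0.17 (SE 0.22, 95% interval -0.63 to 0.29, edgeR adjusted p = 0.761).

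IGF1R, the receptor for the insulin-like growth factors (IGF), was the only receptor besides PDGFRB with a higher mean in SP cells among those tested, but was not called. The gene (ENSG00000140443) lies on the plus strand at chr15:99191768-99507759. Its levels were 31.7, 38.2, 20.03 and 32.4 CPM in SP replicates 1 to 4 and 30.3, 27.2, 19.8 and 24.9 CPM in NSP replicates 1 to 4. Replicate 3 was the lowest of both groups, and the ranges overlapped, while SP was above NSP in 4 of 4 pairs with the same replicate number. The means were 30.6 ± 7.61 CPM and 25.5 ± 4.44 CPM (SD, n = 4), and the log2 fold change was 0.24 (SE 0.23, 95% interval -0.25 to 0.73, edgeR adjusted p = 0.663). With replicate numbers as a block it was 0.25 (edgeR adjusted p = 0.492).

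**Figure D3:**
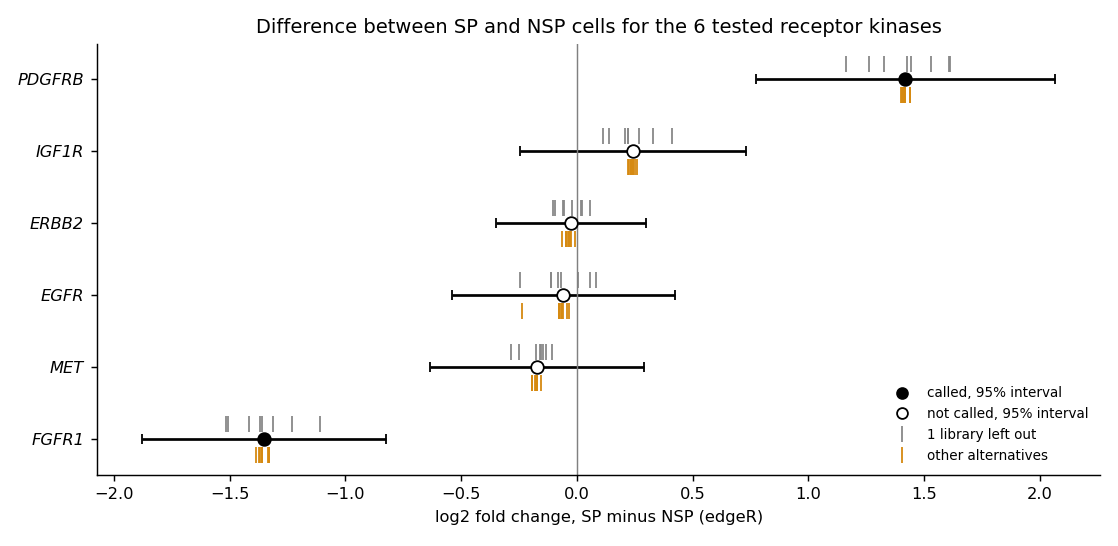
Log2 fold change of SP over NSP for the 6 tested receptors, with the 95% interval from edgeR as a bar, filled circles for called and open circles for not called genes, grey ticks for fits that leave out 1 library and orange ticks for the other alternatives. The intervals of FGFR1 (-1.88 to -0.83) and PDGFRB (0.77 to 2.07) lie on opposite sides of 0, and those of the other 4 receptors include 0.

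FGFR3, the FGF receptor most often mutated in bladder tumours, had 0, 8, 8 and 2 counts in SP replicates 1 to 4 and 6, 3, 2 and 3 counts in NSP replicates 1 to 4. The means were 2.79 ± 2.48 CPM in SP and 2.01 ± 0.860 CPM in NSP cells (SD, n = 4). The groups overlapped, and without the filter on low counts the log2 fold change was 0.49 (SE 0.63, edgeR adjusted p = 0.741). FGFR2 had 1 count in all 8 libraries, in NSP replicate 2, and FGFR4 had 2, in NSP replicates 2 and 3. In the SP libraries a count of 0 allows up to 3 counts, or 1.62 to 2.21 CPM by library, with counting error only. FGFR1 was thus the only FGF receptor of the 4 with at least 10 counts in every library.

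To compare levels between receptors, CPM were divided by the length of all annotated exons of each gene. These levels carry the doubt about the strand for every receptor. A gene on the other strand makes it visible for FGFR1 and EGFR, whose noncoding partners held 26.9 and 8.69 times as many counts per kb. For ERBB2, MIEN1 on its other strand held 1.36 times as many counts per kb. PDGFRB, MET and IGF1R, which have no such gene, carry the same doubt, but their counts cannot show it. In SP cells ERBB2 led with 24.4 ± 3.34 CPM per kb, followed by PDGFRB at 4.29 ± 1.001, EGFR at 2.86 ± 0.529, MET at 2.66 ± 0.408, IGF1R at 2.19 ± 0.546 and FGFR1 at 1.81 ± 0.478 CPM per kb (SD, n = 4). ERBB2 and PDGFRB each lay above the full range of the next receptor, whereas EGFR, MET, IGF1R and FGFR1 each overlapped with the next of these 4 in the order. FGFR1 lay above the full range of FGFR3, which followed it. In NSP cells ERBB2 was again highest at 24.8 ± 3.05 CPM per kb, followed by FGFR1 at 4.61 ± 1.58, MET at 3.03 ± 0.326, EGFR at 2.99 ± 0.858, IGF1R at 1.83 ± 0.319 and PDGFRB at 1.596 ± 0.718 CPM per kb (SD, n = 4). From FGFR1 to PDGFRB each receptor overlapped with the next. On these levels FGFR1 and PDGFRB changed places, from rank 6 in SP to rank 2 in NSP for FGFR1 and from rank 2 in SP to rank 6 in NSP for PDGFRB. FGFR3 and ERBB3 came next in both populations with less than 1 CPM per kb.

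The genes whose level across the 8 libraries was most like that of FGFR1 were PLAUR, the urokinase receptor, with a Pearson correlation of log2(CPM + 1) of 0.987, the DNA replication factor WRNIP1 with 0.986, and the noncoding gene ENSG00000234961 with 0.983. For ERBB2 they were NDUFA12, a respiratory complex I gene, with 0.978, the zinc finger gene ZNF45 with 0.961, and MZT2B, a spindle gene, with 0.935. These are descriptions over 8 libraries that share their depth and, for FGFR1, the difference between the groups. Each value is among the highest in a search over all tested genes, and how high such values run by chance was not tested. Of the 3 genes most like FGFR1, ENSG00000234961 was called lower in SP cells (log2 fold change -0.98, edgeR adjusted p = 0.00949), and PLAUR (-0.87) and WRNIP1 (-0.47) were not called.

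Around the receptors, 10 lists of ligands, co-receptors and signalling genes held 188 genes, of which 79 were tested, 2 rose and 5 fell in SP cells (8.86% called, against 3.66% of all tested genes). Their median log2 fold change was -0.06. A fit with replicate numbers as a block called 7 higher and 14 lower, and over all tested genes it called 12.9%, with 5.89% higher and 7.0% lower. The lists were chosen with earlier results of these data known, and the counts are descriptions.

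**Figure D4:**
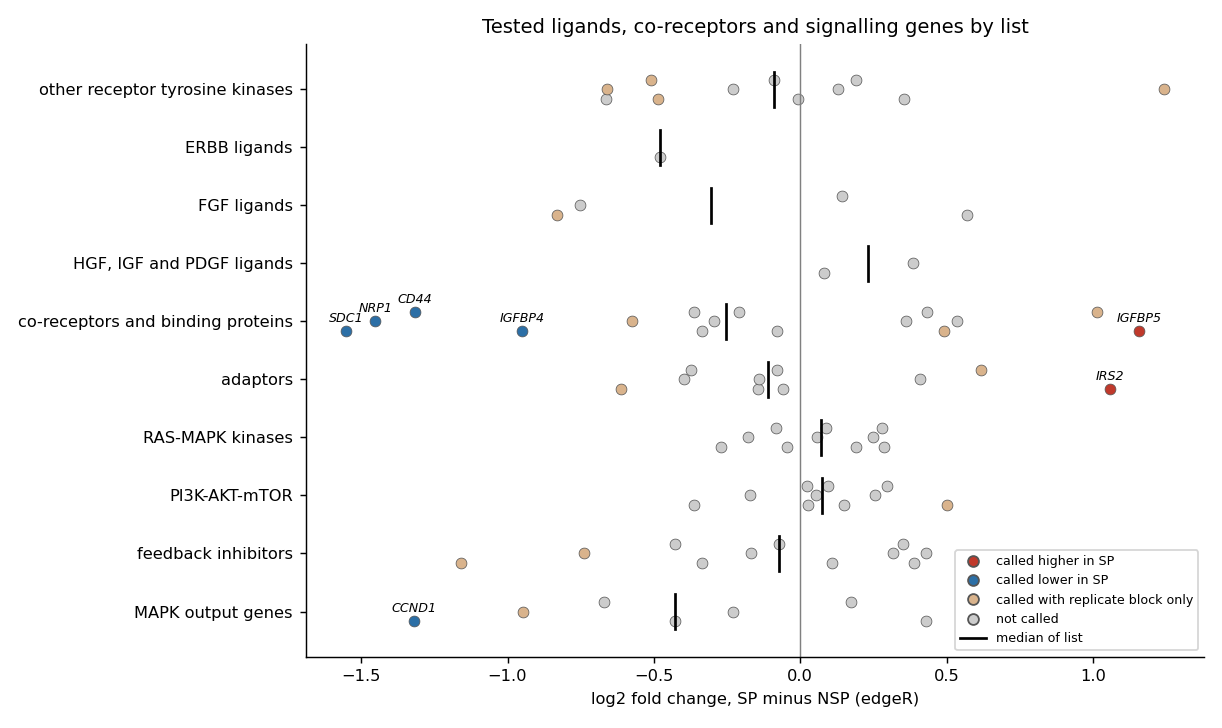
Log2 fold change of SP over NSP for the 79 tested genes of the 10 lists, 1 line per list (genes on 2 lists appear on both), with the median of each list as a vertical line and colours for genes called higher, called lower, called only with the replicate block, or not called. The called genes are IRS2 and IGFBP5 on the right and CD44, SDC1, NRP1, IGFBP4 and CCND1 on the left.

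Among the ligands, those of the EGFR family were scarce. AREG and EREG had 0 counts, TGFA 1 in SP and 2 in NSP cells, and HBEGF 13 in each, summed over 4 libraries. NRG1, a neuregulin that binds ERBB3, was the only ERBB ligand tested, with 13.7 ± 7.46 CPM in SP and 19.7 ± 7.95 CPM in NSP cells (SD, n = 4, log2 fold change -0.48, edgeR adjusted p = 0.562). Of 22 FGF genes 4 were tested and 0 were called by edgeR or DESeq2, with 2 at an unadjusted p under 0.05. The fit with the block called 1, against 12.9% of all tested genes. These 4 were FGF2, a ligand of FGFR1, at 56.7 ± 12.4 CPM in SP and 51.1 ± 13.8 CPM in NSP cells (SD, n = 4, log2 fold change 0.14), FGF1 (-0.75), and the intracellular FGF12 (0.57) and FGF14 (-0.83, edgeR adjusted p = 0.155, 0.0462 with the block). PDGFB, which encodes the ligand of PDGFRB, ranged from 5.04 to 28.1 CPM in SP and from 8.51 to 25.2 CPM in NSP cells and was not called (log2 fold change 0.08, SE 0.47, edgeR adjusted p = 0.957). PDGFA, whose product binds mainly the related receptor PDGFRA, was also not called (0.38). HGF, the ligand of MET, had 5 counts in SP and 3 in NSP cells, and the IGF1R ligands IGF1 and IGF2 had 0 in all libraries and 5 in SP against 13 in NSP cells.

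Most calls fell among the co-receptors and ligand-binding proteins, where 16 of 20 genes were tested, 1 rose and 4 fell, against 3.66% called over all tested genes. At an unadjusted p under 0.05 were 8, but for this and the other lists the share of all tested genes at that level was not computed. With the block 3 were called higher and 5 lower, against 12.9% called over all tested genes. The additional genes were the IGF-binding IGFBP3 (0.97, edgeR adjusted p = 5.81e-09) and IGFBP7 (0.48, edgeR adjusted p = 0.00631), both higher, and the heparan sulfate carrier GPC1 (-0.57, edgeR adjusted p = 0.00498), lower. IGFBP7 overlaps POLR2B on the other strand, which held 2383 counts and a log2 fold change of 0.57. IGFBP5, which binds IGF and was the most abundant of them, rose from 1426 ± 342 CPM in NSP to 3183 ± 656 CPM in SP cells (SD, n = 4, log2 fold change 1.16, SE 0.20, edgeR adjusted p = 0.00469). IGFBP4, which also binds IGF, fell (-0.95, SE 0.24, edgeR adjusted p = 0.0372), with SP and NSP ranges that overlapped. The other 3 called without the block were surface proteins that hold or present growth factors. CD44, which presents HGF to MET, fell from 111 ± 22.7 to 44.4 ± 14 CPM (SD, n = 4, log2 fold change -1.32, SE 0.22, edgeR adjusted p = 0.00376). SDC1, a heparan sulfate carrier, fell by 1.55 on the log2 scale (SE 0.37, edgeR adjusted p = 0.0281) and NRP1, a neuropilin, by 1.45 (SE 0.35, edgeR adjusted p = 0.0314). As with FGFR1, CD44 and NRP1 overlap genes on the other strand that hold more counts, CD44-AS1 with 3694 counts and a log2 fold change of -1.44 and ENSG00000238258 with 1425 counts and -1.52. The calls of IGFBP4, SDC1 and NRP1 did not hold without each library. IGFBP4 was lost without SP replicate 1, 2 or 3 or NSP replicate 2 or 3 (-0.97 to -0.77), SDC1 without SP replicate 1, 2 or 4 or NSP replicate 1 or 2 (-1.59 to -1.29), and NRP1 without SP replicate 1, 3 or 4 or NSP replicate 1 or 2 (-1.47 to -1.21).

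**Figure D5:**
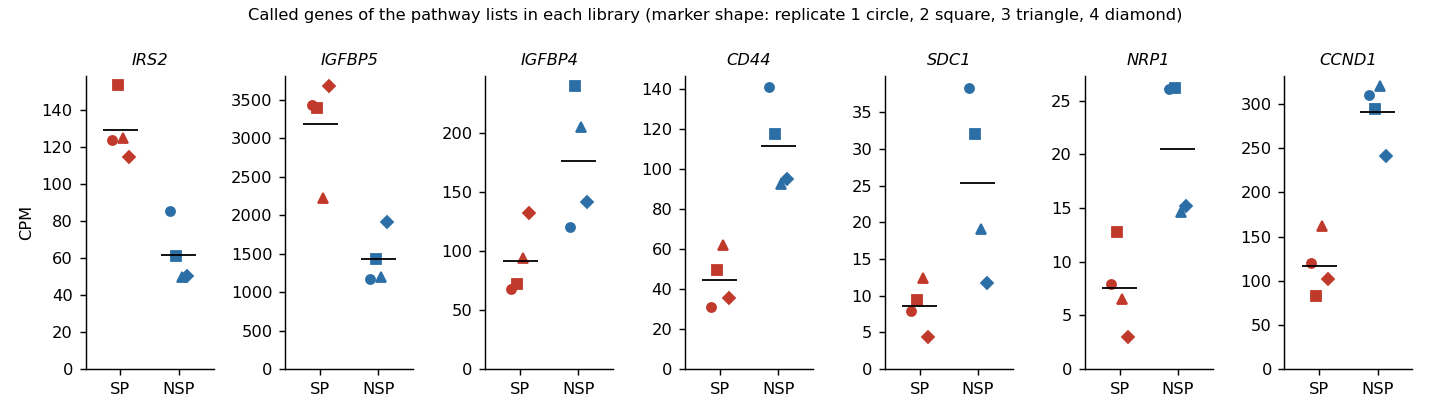
CPM of the 7 called list genes in each SP (red) and NSP (blue) library, on linear axes that start at 0, with marker shapes for replicate numbers and lines for group means. IRS2 and IGFBP5 are higher in every SP library than in every NSP library, CD44, NRP1 and CCND1 are lower in every SP library, and the groups overlap for IGFBP4 and SDC1.

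Among the adaptors that dock on active receptors, IRS2, which relays signals of IGF1R and the insulin receptor, rose in SP cells. It had 124, 153, 125 and 115 CPM in SP replicates 1 to 4 and 85.6, 61.2, 49.7 and 50.5 CPM in NSP replicates 1 to 4, without overlap (log2 fold change 1.06, SE 0.19, edgeR adjusted p = 0.00584). The other 9 tested adaptors were not called without the block, among them GRB2 (-0.37) and SHC1 (-0.14). Over all tested genes 3.66% were called without the block and 12.9% with it. With the block GAB2 was called higher (0.64, edgeR adjusted p = 0.038) and NCK2 lower (-0.61, edgeR adjusted p = 0.0326), which overlaps ENSG00000235522 on the other strand with 902 counts and a log2 fold change of -0.69. Of the RAS-MAPK kinases 10 of 11 were tested and 0 were called by edgeR, with or without the block, or by DESeq2, 0 had an unadjusted p under 0.05, and their log2 fold changes ran from -0.27 to 0.29. Of the PI3K-AKT-mTOR genes 10 of 20 were tested and 0 were called by edgeR or DESeq2, and the 1 with an unadjusted p under 0.05 was called with the block, MTOR (0.50, edgeR adjusted p = 0.102, 0.0184 with the block). Of the feedback inhibitors 11 of 25 were tested and 0 were called by edgeR or DESeq2, with 2 at an unadjusted p under 0.05. With the block both, the RAS inhibitor NF1 (-0.71, edgeR adjusted p = 0.00943) and ERRFI1, an inhibitor of ERBB kinases (-1.08, edgeR adjusted p = 0.0227), were called lower.

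The 7 tested genes whose transcription usually follows MAPK activity had a median log2 fold change of -0.43, against 0.01 over all tested genes, and 1 of them fell. This was CCND1, cyclin D1, with 117 ± 33.8 CPM in SP and 292 ± 35.1 CPM in NSP cells (SD, n = 4, log2 fold change -1.32, SE 0.19, edgeR adjusted p = 0.00155). CCND1 overlaps LTO1 on the other strand, which held 10717 counts and a log2 fold change of -1.51. ETV4, an ETS factor, was called only with the block (-0.94, edgeR adjusted p = 0.0108), and ETV5 (-0.67), EPHA2 (-0.23) and SPRY2 (0.43) were not called. Among all tested genes the share called was 3.66% without the block and 12.9% with it. DUSP6 and SPRY4, direct feedback genes of the FGF receptors, held too few counts to be tested.

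Of 48 other receptor tyrosine kinases 11 were tested and 0 were called by edgeR, with 4 at an unadjusted p under 0.05. DESeq2 called 1, and the fit with the block called 4, against 12.9% of all tested genes. ROR2, a WNT5A receptor, was higher in SP cells with the block (1.26, edgeR adjusted p = 1.05e-06), and had 40.9 ± 13.5 CPM in SP and 17.3 ± 9.37 CPM in NSP cells (SD, n = 4, edgeR adjusted p = 0.0588 without the block and DESeq2 adjusted p = 0.0466). The ephrin receptors EPHB4 (-0.64, edgeR adjusted p = 0.00562) and EPHA1 (-0.48, edgeR adjusted p = 0.00391) and the GAS6 receptor AXL (-0.54, edgeR adjusted p = 0.00215) were lower with the block. EPHB4, EPHA1 and AXL overlap genes on the other strand that held 419, 3122 and 4630 counts. PDGFRA, the relative of PDGFRB, had 1 count in all libraries, and ERBB4, the fourth ERBB receptor, had 2.

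Markers of other cell types and states were measured in the same fit. That fit called 3.66% of all tested genes, and the fit with the block 12.9%. Of 6 mesenchymal markers, the group in which PDGFRB is usually found, 5 were tested, and FN1, fibronectin, fell (-1.25, edgeR adjusted p = 0.000863). VIM, vimentin, was called lower with the block (-0.75, edgeR adjusted p = 3.39e-06) and by DESeq2 (-0.78, adjusted p = 0.0458), but not without the block (-0.76, edgeR adjusted p = 0.0784). The 5 tested markers held 4 negative and 1 positive log2 fold changes. ZEB2 went the other way, at 0.39 to 0.62 without each library in turn, and was not called. The summed level of the 6 mesenchymal markers was 299 to 469 CPM in SP and 516 to 886 CPM in NSP libraries. Of 7 epithelial markers 4 were tested and KRT7, a keratin, fell (-1.35, edgeR adjusted p = 0.00342), with summed levels of 3401 to 4754 CPM in SP and 4639 to 6381 CPM in NSP libraries, while EPCAM and GRHL2 were near 0. KRT7 overlaps KRT7-AS on the other strand, which held 29032 counts and a log2 fold change of -1.58, and VIM overlaps VIM-AS1, which held 52960 counts and a log2 fold change of -0.94. Urothelial markers, with 1 of 10 tested and 0 called by edgeR or DESeq2, ranged from 14.7 to 36.7 CPM in SP and from 22.1 to 37.8 CPM in NSP libraries. Leukocyte markers ranged from 42.8 to 98.0 CPM in SP and from 20.4 to 58.8 CPM in NSP libraries, most of it CD14, which was called higher with the block (1.01, edgeR adjusted p = 2.77e-06) but not without it (0.96, edgeR adjusted p = 0.135). CDH5 and VWF, which mark endothelial cells, together reached at most 0.736 CPM in any library. PECAM1, also on the endothelial list, could not be matched to a single gene of the count table and was left out. The part of these markers in the FGFR1 and PDGFRB differences was not tested.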

How the data were processed

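RNA of 4 SP and 4 NSP libraries of J82 cells was sequenced by the authors as single-end 50-bp reads (KAPA mRNA HyperPrep), aligned to hg19 with STAR and counted on gencode version 19 genes with featureCounts of Subread. The strand setting and the treatment of reads matching several genes were not given in the sources used here. The authors deposited raw read counts per gene, not normalized, and groups and replicates follow the labels. Identifiers were joined to GENCODE 44 mapped to GRCh37 (55538 of 57820 genes, 96.1%), which also gave exon lengths and overlaps. The quasi-likelihood test of edgeR 4.0.16 (R 4.3.3) was run without a covariate after TMM scaling, and it was checked on simulated data. Genes entered it through filterByExpr at a minimum count of 10, with 15 as the lowest total. DESeq2 1.42.0, which the study used, was an alternative, with other scalings and filters, a replicate block, each library left out, and opposite-strand counts added. The deviations of same-numbered SP and NSP libraries from their group means correlated at 0.380, 0.203, 0.322 and 0.321 over 9309 genes for replicates 1 to 4. The numbers were therefore taken to pair the libraries. Only the fit with the replicate block uses this pairing, and the main fit and the exact permutations ignore it. The named genes were the receptors, genes on the other strand across their exons with at least 10 counts, called genes and the up to 3 lowest p-values of each list, and the genes most like ERBB2 (highest mean CPM) and FGFR1 (lowest p). A few untested ligands and other list genes were named after their values were seen. The receptors and lists were chosen with earlier results of these data known. Python 3.11.15 was used for exact tests and figures.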

Additional observations from a re-analysis of the deposited data

Results flagged for a closer look

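Among 102 groups of 4 libraries examined for the named genes, 3 held a library far from the other 3, against about 5.1 by chance (Dixon's 95% criterion, the gap to the nearest library over the range of the group). None of the 3 was a receptor gene. FGF12 was highest in SP replicate 3, at a gap of 0.893 of the range (56 counts, 30.3 CPM, against 12.5 to 14.4 CPM). LETM2, on the other strand of FGFR1, was highest in NSP replicate 1, at 0.944 of the range (15 counts, 7.98 CPM, against 3.19 to 3.46 CPM). MAP2K2, a MAPK kinase, was lowest in SP replicate 4, at 0.865 of the range.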

How the results depend on the processing

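FGFR1 was called lower in 16 of 16 alternatives (log2 fold change -1.52 to -1.11, edgeR or DESeq2 adjusted p at most 0.0249) and PDGFRB higher in 15 of 16. Without 1 library, receptors called higher ranged from 0 to 1, since PDGFRB was lost without SP replicate 2 (1.26, range 1.16 to 1.61). EGFR ranged from -0.25 to 0.081 without 1 library, turning positive without SP replicate 4 (0.057), NSP replicate 1 (0.081) or NSP replicate 4 (0.0040), and ERBB2 from -0.11 to 0.059, positive without SP replicate 1 (0.059), NSP replicate 2 (0.02) or NSP replicate 3 (0.02). Neither was called in any. CD68 ranged from -0.52 to 0.046, the latter without SP replicate 3. PDGFB ranged from -0.25 to 0.40, with -0.25, -0.24, -0.14 and -0.11 without SP replicates 2 and 3 and NSP replicates 1 and 4.

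With the replicate number as a block, 548 genes were called higher and 652 lower in SP cells instead of 152 and 189, and 7 and 14 list genes instead of 2 and 5. The block changed no call among the receptors. Without the low-count filter 303 and 381 genes and 4 list genes higher were called, and with at least 10 counts in every library 3 list genes lower. Leaving out 1 library gave 69 to 164 genes higher and 89 to 181 lower, both lowest without NSP replicate 2, and 2 to 3 list genes higher and 2 to 5 lower. The causes were not tested. ERBB3, FGFR2, FGFR3 and FGFR4 held too few counts for a test, and whether depth or the unknown strand setting limits them was not tested. The strand setting bears on all levels, those of FGFR1 and PDGFRB included.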
